A study of Mus musculus with 6 samples.

Results

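The genes described here encode the core of 3 protein complexes that set apical and basolateral polarity in epithelial cells: Pard3, Pard6b and Prkci of the Par complex, Crb3, Pals1 and Patj of the Crumbs complex, and Llgl2, Scrib and Dlg1 of the Scribble module. They were chosen by symbol, and all 9 stand among the 16701 genes of the authors' deposited table. That table holds 1 comparison, polyadenylated RNA of luminal epithelial cells of the mouse mammary gland in 3 libraries from Ocln knockout mice (Ocln-/-) against 3 from wild-type (WT) controls, all at 7 weeks of age. Ocln encodes occludin, a tight junction membrane protein, and the series asks how occludin and the endosome protein FIP5 act on the mitotic spindle. The labels leave out the isolation of the cells, the number of mice behind a library, the cells that carry the deletion and the strain. The p-values therefore set the difference between genotypes against the spread among these libraries, which may in part be technical.

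As background, the Par complex joins the scaffold Par3, the adaptor Par6 and an atypical protein kinase C, and becomes active when the GTPase Cdc42 binds Par6. The Crumbs complex holds this activity at the apical membrane, and the Scribble module keeps the basolateral side apart from it: the kinase phosphorylates Lgl proteins and so keeps them off the apical cortex. The same proteins help to place tight junctions and, through Dlg1 and Scribble, to orient the mitotic spindle in the plane of an epithelium.

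Of the 9 members 0 passed an adjusted p of 0.05, where 1.08 percent of all listed genes did, 0.808 percent as higher and 0.275 percent as lower in the knockout, per the authors' deposited table. The lowest adjusted p, 0.508, belonged to Pard6b, which also had by far the largest fold change of the 9. The other 8 members lay between 0.00 and 0.25 on the log2 scale in the authors' deposited table, and the 95 percent interval of each stayed within a 1.5-fold change in either direction. All 9 values were positive as deposited, with a median of 0.11 where the median of all listed genes was -0.01. The 9 luminal marker genes had a median of 0.20, above that of the members, but were mixed. They ran from -0.36 to 0.39, with 6 positive and 3 negative. The sign of most of the small values of the members thus depends on the reference, and no direction is given for these values as a group.

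Sequencing depth per library is unknown, and only means over all 6 libraries and fold changes could be used. The authors' deposited table gave Ocln, the deleted gene, 44.9 percent of the control level (log2 fold change -1.15 ± 0.16 SE, adjusted p by DESeq2 4.36e-09). Luminal markers dominated the marker lists, with summed levels of 352066 normalized counts in control and 343603 in knockout, computed from the mean levels and fold changes of 9 genes, of which 0 passed and, before adjustment, 1 had a p under 0.05 as higher and 1 as lower. The corresponding sums were 2202 and 1857 for 7 basal markers, 1267 and 1017 for 5 fibroblast markers, and 1054 and 1763 for 5 myeloid markers. Of these, Oxtr and Dcn were the called genes, both lower in the authors' deposited table (log2 fold changes of -1.55 ± 0.38 and -1.36 ± 0.35 SE). Without Oxtr the basal sums were 1621 and 1658, and without Dcn the fibroblast sums were 710 and 800. The lower fibroblast sum thus rests on Dcn, as the other 4 markers were positive. The basal sums without Oxtr also depend on Krt17, with levels of 198 and 359 (log2 fold change 0.86 ± 0.42 SE). Of the 7 basal markers 5 were negative, with a median log2 fold change of -0.16. All 5 myeloid markers had positive values and 0 passed. Among them were Lyz2, with levels of 366 and 716 (log2 fold change 0.97 ± 0.29 SE, adjusted p = 0.0665 by DESeq2), and Ptprc (1.19 ± 0.76 SE). The B cell markers Ms4a1 and Ighm summed to 117 and 348, with log2 fold changes of 1.54 ± 1.60 and 1.58 ± 1.15 (SE) in the authors' deposited table, and 0 of them passed or had a p under 0.05 before adjustment. Sums of the 4 listed endothelial markers were 1305 and 1362, while Trbc2 alone of the T and NK cell markers (122 and 142) and Fabp4 alone of the adipocyte markers (467 and 423) were listed. In such bulk samples fewer cells of a type and less RNA per cell cannot be told apart, and the part of other cell types in the values below was not tested.

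Within the Par complex the kinase and the scaffold had values near 0 and the adaptor gene did not. Prkci, the atypical protein kinase C iota, lies on chromosome 3 (30995747 to 31052959 on GRCm38, plus strand). Its mean level of 6609 normalized counts in the authors' deposited table splits, given its fold change, into 6333 in control and 6884 in knockout. The log2 fold change was 0.12 ± 0.15 (SE; adjusted p = 0.909 by DESeq2) in the authors' deposited table, which is 109 percent of control with a 95 percent interval of 89.3 to 132 percent. Pard3, the scaffold that binds junctional adhesion molecules and recruits the other subunits, lies on chromosome 8 (127063893 to 127612286, plus strand). Its levels came to 2555 in control and 2764 in knockout. In the authors' deposited table its log2 fold change was 0.11 ± 0.14 (SE; adjusted p = 0.918 by DESeq2), or 108 percent of control with an interval of 89.1 to 131 percent.

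Pard6b, the adaptor that couples Cdc42 to the kinase, lies on chromosome 2 (168081004 to 168101203, plus strand) as a gene with 3 exons and 1 annotated transcript. Its levels came to 1341 normalized counts in control and 3119 in knockout, a 2.33-fold higher mean. In the authors' deposited table the log2 fold change was 1.22 ± 0.59 (SE; DESeq2 p = 0.0394, adjusted p = 0.508), and the 95 percent interval ran from 104 to 519 percent of control. The authors themselves called the gene Up in the deposited table, by a rule on the unadjusted p and the fold change that 1.8 percent of listed genes met. Before adjustment, 5.23 percent of listed genes had a p under 0.05 as higher in the knockout and 3.83 percent as lower, and among the 9 members Pard6b alone did, as higher. With an SE of this size a rise would have had to reach 4.13-fold to pass, against 1.41-fold to 1.54-fold for the other 8 members.

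**Figure D1:**
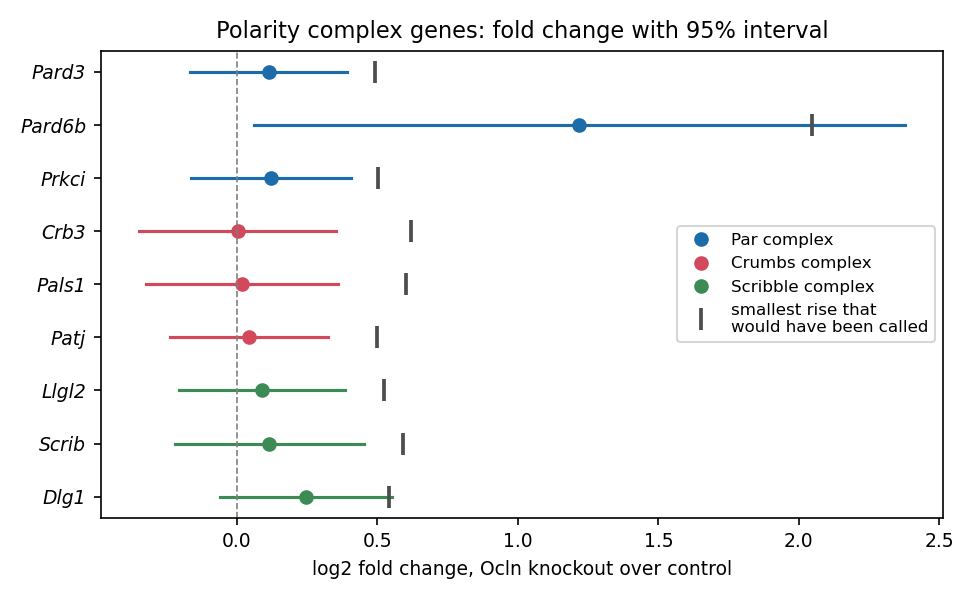
Log2 fold change (x axis, Ocln knockout over control) of the 9 members (y axis), with points for the authors' deposited values, horizontal lines for 95 percent intervals (1.96 SE on either side), colours for the complex and grey ticks for the smallest rise that would have passed an adjusted p of 0.05 at each gene's SE. Pard6b at 1.22 stands apart from the other 8 members, which lie from 0.00 to 0.25, and no point reaches its tick.

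The SE of Pard6b was unusual for a gene of its level. Among the 500 genes closest to it in mean level the median SE was 0.17, which makes its own 3.52 times as large, and only 5 of those 500 had a larger one. For 3 libraries a group, an SE of 0.59 corresponds to a coefficient of variation (CV, the SD as a percentage of the mean) of 50.1 percent between libraries of 1 genotype, after counting noise is taken off. The other members had CVs from 11.9 to 14.8 percent by the same formula. Llgl2 had a small SE for its level, below that of 486 of its 500 neighbours in level. These CVs were read from the fitted SE and not from values per library.

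Genes with a mean level above 1000 fell into separate groups on this measure. Of 5046 such genes 4967 had a CV of at most 32.0 percent and 79 had one of at least 47.0 percent, with none between, and Pard6b belonged to the 79. Of the 79, 27 had a positive and 52 a negative log2 fold change, where 48.8 percent of all listed genes were positive. The authors' deposited table gave 0 of the 79 an adjusted p under 0.05, where 1.08 percent of all listed genes passed. Before adjustment, 4 of the 79 had a p under 0.05 as higher and 2 as lower in the knockout. Over all listed genes these shares were 5.23 and 3.83 percent. Pard6b had the fifth highest positive value among them, after Dclk1, Fcgbp, Scara3 and Cyp1b1, which were named for that order, while 9 of the negative values were larger in size. No other gene of the polarity and marker lists used here was in this group, which genes of lower mean level could not enter. Among list genes of lower level, Ptprc (64.0 percent), Ighm (97.3) and Ms4a1 (135) had CVs above 47.0 percent. So did Dlgap1 (58.5), Mpp3 (52.9) and Jam3 (47.2), at mean levels from 10.4 to 16.8. As background, DESeq2 by default pulls the dispersion of most genes towards a trend with level and leaves a gene that lies far above the trend at its own estimate; the deposited table does not record which genes were treated so. Whether 1 library, or several, carried the spread of Pard6b was not tested, since no values per library were used here.

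**Figure D2:**
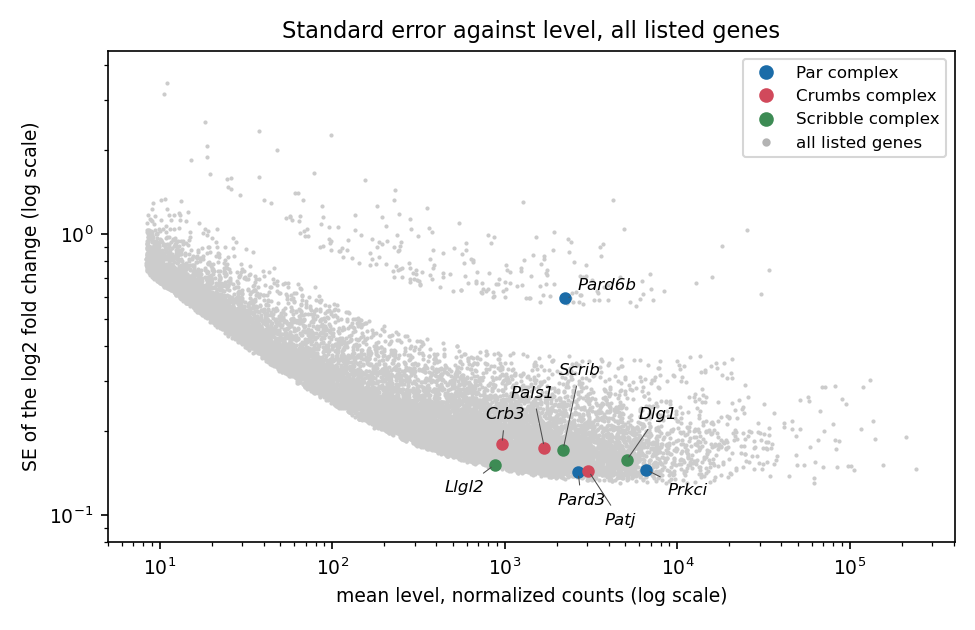
SE of the log2 fold change (y axis, log scale) against mean level in normalized counts (x axis, log scale) for all 16701 listed genes (grey) and the 9 members (coloured by complex, labelled). Pard6b (SE 0.59) lies in the sparse upper band above an empty strip, while the other 8 members lie from 0.14 to 0.18 in the main cloud.

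Around Pard6b on chromosome 2, 22 other listed genes lie within 1000000 bases on either side. By DESeq2 0 of them passed, and before adjustment 3 (Spata2, B4galt5 and Nfatc2) had a p under 0.05, all as higher. Of all listed genes 5.23 percent had such a p as higher. The median log2 fold change of the 22 was 0.27, where that of all listed genes was -0.01. The 6 neighbours with a mean level above 1000 had log2 fold changes from -0.29 to 0.29 and SEs from 0.15 to 0.28 in the authors' deposited table. The nearest, Ripor3 and Adnp, had values of 0.81 ± 0.55 at a mean level of 30.6 and 0.07 ± 0.30 at 90.8 (SE) in the authors' deposited table. No annotated gene overlaps Pard6b in GENCODE.

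On the scale as deposited, the 3 Crumbs complex genes had the smallest fold changes of the members, an order that did not hold with the length trend removed (Crb3 0.065, Pard3 0.051, Scrib 0.054) or relative to the luminal markers. Crb3 encodes the short transmembrane protein whose cytoplasmic tail anchors the complex, Pals1 the adaptor that ties this tail to Patj, and Patj a scaffold of many PDZ domains that also binds tight junction proteins. The level of Crb3 came to 961 normalized counts in control and 963 in knockout. Its log2 fold change was 0.00 ± 0.18 (SE; adjusted p = 0.998 by DESeq2) in the authors' deposited table, or 100 percent of control with an interval of 78.6 to 128 percent. Pals1, listed as Mpp5 in the annotation, came to 1684 and 1706, and in the authors' deposited table to a log2 fold change of 0.02 ± 0.17 (SE; adjusted p = 0.992 by DESeq2) with an interval of 80.0 to 128 percent. Patj came to 2999 and 3092, with a log2 fold change of 0.04 ± 0.14 (SE; adjusted p = 0.973 by DESeq2) in the authors' deposited table and an interval of 84.8 to 125 percent. For each of these 3 genes the difference between genotypes was smaller than its SE, as it was for Pard3, Prkci, Llgl2 and Scrib. Changes within the intervals remain possible. The smallest rises that would have passed were 1.54-fold for Crb3, 1.52-fold for Pals1 and 1.41-fold for Patj, beyond the tops of their intervals. Rises below these could not have passed with these libraries.

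Crb3 lies on chromosome 17 (57059105 to 57065918, plus strand), Pals1 on chromosome 12 (78748907 to 78840714, plus strand) and Patj on chromosome 4 (98395785 to 98719603, plus strand). Crb3 overlaps listed genes of the opposite strand at both ends, Slc25a23 (mean level 3187) and Dennd1c (mean level 289) in the authors' deposited table. No source used here says whether reads were counted by strand, so its level may hold reads of these neighbours. Both neighbours had values that did not pass either, at -0.14 ± 0.21 and 0.04 ± 0.25 (log2 fold change, SE) in the authors' deposited table.

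Snail and ZEB repressors are known to shut off Crumbs and Lgl genes in carcinoma cells through the E-box CACCTG, read CAGGTG on the other strand. RefSeq's table of promoters (GRCm38.p6, 250 bases before to 50 after a transcription start) held 13 windows for 6 of the members, Pals1, Llgl2 and Scrib not being among them. The E-box occurred on either strand in 6 of these 13 windows, where 20.2 percent of all 32851 windows hold it. Those 6 belong to 5 genes, and no share per gene was computed for all genes. The GC content of the member windows ran from 33.7 to 78.7 percent, with a median of 52.7 percent over all windows, and was not matched. The windows of Crb3 and Patj are shown because these genes are targets of that repression, and the window of Pard6b because it is the member with the largest fold change. Capitals mark the E-box.
Crb3, chr17:57061951-57062250, plus strand: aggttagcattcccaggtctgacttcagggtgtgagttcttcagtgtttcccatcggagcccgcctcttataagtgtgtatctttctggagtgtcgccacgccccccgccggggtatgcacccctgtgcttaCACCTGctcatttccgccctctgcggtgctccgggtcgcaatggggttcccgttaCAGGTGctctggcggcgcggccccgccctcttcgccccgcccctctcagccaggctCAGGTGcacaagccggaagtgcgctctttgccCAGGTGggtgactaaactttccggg
Patj, chr4:98395576-98395875, plus strand: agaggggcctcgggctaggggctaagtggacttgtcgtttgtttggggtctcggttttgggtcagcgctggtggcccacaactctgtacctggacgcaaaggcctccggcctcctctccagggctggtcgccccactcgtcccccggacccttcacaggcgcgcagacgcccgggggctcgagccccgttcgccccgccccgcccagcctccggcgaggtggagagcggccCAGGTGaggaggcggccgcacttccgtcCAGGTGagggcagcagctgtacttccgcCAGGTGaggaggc
Pard6b, chr2:168080754-168081053, plus strand: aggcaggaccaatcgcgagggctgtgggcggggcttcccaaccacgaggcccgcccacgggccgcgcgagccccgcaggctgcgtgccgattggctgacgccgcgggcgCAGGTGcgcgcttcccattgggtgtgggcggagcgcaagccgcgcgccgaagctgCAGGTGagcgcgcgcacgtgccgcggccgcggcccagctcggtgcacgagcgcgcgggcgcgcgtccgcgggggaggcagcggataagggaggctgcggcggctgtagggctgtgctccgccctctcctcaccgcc
The Crb3 window shown held 4 copies, that of Patj 3 and that of Pard6b 2. The other 2 windows of Patj held 0. A second Crb3 window starts 30 bases further on and holds the same copies, so these are not independent. The remaining windows with the E-box belong to a downstream start of Pard3 and to 1 of 4 starts of Dlg1, and the Prkci window had none. Of the repressor genes, a list added after the values were seen, Snai1 (mean level 26.3), Zeb1 (44.8) and Zeb2 (60.8) were low and missed the threshold in the authors' deposited table, with log2 fold changes of -0.06 ± 0.43, 0.86 ± 0.48 and 0.20 ± 0.43 (SE). A match of letters shows neither binding nor use, and binding was not measured.

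The Scribble module held the largest value after Pard6b. Dlg1, a scaffold that takes part in spindle orientation and basolateral identity, lies on chromosome 16 (31663443 to 31875129, plus strand) and came to 4641 normalized counts in control and 5503 in knockout. Its log2 fold change was 0.25 ± 0.16 (SE; DESeq2 p = 0.117, adjusted p = 0.707) in the authors' deposited table, or 119 percent of control with an interval of 95.8 to 147 percent. Scrib, the leucine-rich repeat scaffold of the module, lies on chromosome 15 (76047158 to 76069784, minus strand) and came to 2087 and 2262. In the authors' deposited table Scrib had a log2 fold change of 0.12 ± 0.17 (SE; adjusted p = 0.937 by DESeq2) and an interval of 85.9 to 137 percent. Llgl2, the Lgl protein that the atypical kinase phosphorylates, lies on chromosome 11 (115824049 to 115855780, plus strand) and came to 845 and 899. Its log2 fold change was 0.09 ± 0.15 (SE; adjusted p = 0.949 by DESeq2) in the authors' deposited table, with an interval of 86.7 to 131 percent. The intervals of all 3 genes include 100 percent of control.

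Levels of different genes were compared per kilobase of the longest annotated transcript, as means over the 6 libraries. The SD given is the one implied by the CV, which was read from the fitted SE and not from values per library. Prkci was the highest member at 1404 ± 172 normalized counts per kilobase, and with these transcripts the range of 1 SD around it did not reach that of any other member. Dlg1 (826 ± 109), Crb3 (797 ± 118) and Pard6b (656 ± 329) followed, and then Pard3 (457 ± 54.6), Patj (415 ± 50.1), Scrib (388 ± 55.7), Pals1 (310 ± 45.1) and Llgl2 (242 ± 29.9), all per kilobase. Below Prkci each neighbour in this order overlapped the next within 1 SD. The SD of Pard6b leaves out its 2.33-fold difference between genotypes, so its place in the order holds for the mean over both only. With the transcript of the longest coding sequence instead, Crb3 came to 1236 and Dlg1 to 1088 per kilobase, which puts Crb3 above Dlg1 and, with an SD of 183, within 1 SD of Prkci. All 9 members were above the median of listed genes per kilobase, at percentiles from 62.8 for Llgl2 to 93.4 for Prkci.

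Pard3, Pard6b, Prkci, Patj and Dlg1 were each the highest listed gene of their family in these cells. Per kilobase, Prkci was 16.9 times as high as Prkcz, the other atypical kinase gene, and Pard3 12.1 times as high as Pard3b. Pard6b was 7.40 times as high as Pard6a and 29.5 times as high as Pard6g on means over both genotypes. Its levels came to 1341 in control and 3119 in knockout, those of Pard6a to 124 and 101 and those of Pard6g to 48.5 and 91.4. Both ratios were thus lower in control than in knockout. Patj was 10.5 times as high as its relative Mpdz. Dlg1 led its family by smaller factors, 1.33 over Dlg3, 2.57 over Dlg5 and 4.91 over Dlg4, but 42.6 over Dlg2. Pals1 was 1.58 times as high as Pals2 and, at 310 per kilobase, within 1 SD of the more distant relative Mpp7 (306). In the Lgl family the order was the other way, Llgl1 being 1.56 times as high as Llgl2, and among the relatives of Scribble Erbin (1681 per kilobase) stood above Scrib. The Crumbs paralogs Crb1 and Crb2 are not among the listed genes.

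**Figure D3:**
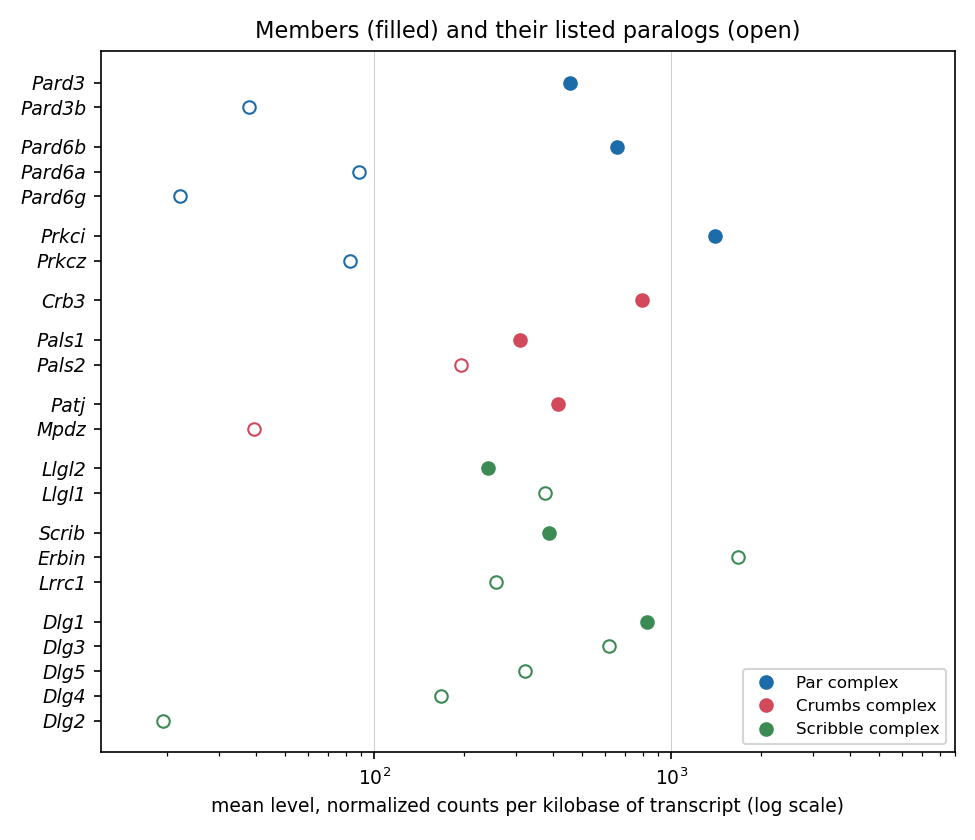
Mean level over the 6 libraries in normalized counts per kilobase of the longest transcript (x axis, log scale) for the members (filled circles) and their listed paralogs (open circles), grouped by family (y axis) and coloured by complex. On these means over both genotypes, Pard3, Pard6b, Prkci and Patj lie 7.40 times or more above each relative shown, while Llgl2 lies below Llgl1 and Scrib below Erbin.

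The paralogs did not pass either. The authors' deposited table called 0 of 17 listed paralogs at an adjusted p of 0.05. Before adjustment 4 had a p under 0.05, Pard6g and Dlg3 as higher and Dlg4 and Mpp1 as lower, and the median log2 fold change of the 17 was 0.11. Pard6g, like Pard6b a Par6 gene, had a log2 fold change of 0.92 ± 0.39 (SE; adjusted p = 0.384 by DESeq2) in the authors' deposited table, where its mean level was only 70.0. The third Par6 gene, Pard6a, was at -0.29 ± 0.24 (SE; adjusted p = 0.819 by DESeq2) in the authors' deposited table. Of the summed Par6 level per kilobase, Pard6b made up 77.7 percent in control and 89.4 percent in knockout, a difference with no test of its own. Dlg3 (0.33 ± 0.15) and Dlg4 (-0.51 ± 0.24 SE), both scaffolds of the Dlg family, had values of opposite sign in the authors' deposited table, and both adjusted p-values missed the threshold (0.455 and 0.490 by DESeq2). Llgl1, at 0.11 ± 0.14 (SE), had a value close to that of Llgl2 in the authors' deposited table. Erbin (0.33 ± 0.18), Mpp7 (-0.13 ± 0.21) and Mpp1 (-0.34 ± 0.17 SE) had the remaining values of note in the authors' deposited table, being the most abundant relatives or having an unadjusted p under 0.05.

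Binding partners of the Par and Crumbs proteins held no called gene. Of 20 listed partners 0 passed. Before adjustment 4 had a p under 0.05 as higher and 0 as lower, where 5.23 and 3.83 percent of all listed genes did. The median log2 fold change of these partners was 0.18. Amot, the angiomotin that binds Patj, had the lowest p of them, with a log2 fold change of 0.50 ± 0.16 (SE; adjusted p = 0.113 by DESeq2) in the authors' deposited table. Tjp1, the ZO-1 scaffold of tight junctions (0.35 ± 0.14), and the nectin adhesion genes Nectin2 (0.31 ± 0.14) and Nectin1 (0.38 ± 0.19 SE) were the others in the authors' deposited table. Cdc42, the GTPase that activates Par6, was at 0.06 ± 0.14, and F11r, the junctional adhesion molecule that binds Par3, at -0.07 ± 0.16 (SE) in the authors' deposited table. In the authors' deposited table the 2 most abundant partners, Cdh1 (0.25 ± 0.17) and Sqstm1 (0.13 ± 0.21 SE), missed the threshold. Among 17 listed partners of the Scribble module 0 passed, and the median was 0.05. Before adjustment 2 of them, Nhs (-0.62 ± 0.28) and the adhesion receptor gene Adgra3 (-0.35 ± 0.17 SE), had a p under 0.05 in the authors' deposited table. Both were lower, where 3.83 percent of all listed genes were lower at that threshold. Numa1 (0.07 ± 0.16) and Gpsm2 (-0.48 ± 0.31 SE), which link the cell cortex to the spindle together with Dlg1, missed the threshold in the authors' deposited table, as did the abundant focal adhesion gene Lpp (-0.12 ± 0.19).

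The PAR-1 and PAR-4 kinases with their adaptors and the genes of the phosphoserine-binding PAR-5 proteins had 0 called of 16 listed, with a median of 0.02. Mark2, a PAR-1 kinase that acts against the Par complex on the lateral membrane, was at 0.07 ± 0.16, and Stk11, the PAR-4 kinase, at 0.01 ± 0.14 (SE) in the authors' deposited table. Only Cab39l, an adaptor of Stk11, had an unadjusted p under 0.05, with a log2 fold change of -0.59 ± 0.27 (SE; adjusted p = 0.468 by DESeq2) in the authors' deposited table. Ywhae (-0.01 ± 0.16) and Sfn (0.37 ± 0.22 SE) were the most abundant genes of that list in the authors' deposited table. Of 17 listed genes of the apical membrane and apical transport 1 rose and 0 fell, where 0.808 and 0.275 percent of all listed genes did. The median of the 17 was 0.09. The rise was Muc1, an apical mucin, with a log2 fold change of 1.15 ± 0.29 (SE; adjusted p = 0.00993 by DESeq2) in the authors' deposited table. Its size was close to that of Pard6b, whose SE was larger. Sytl2, an effector of Rab27 (-0.94 ± 0.33, adjusted p = 0.173 by DESeq2), and Msn, an actin linker (0.30 ± 0.15 SE), had an unadjusted p under 0.05 in the authors' deposited table, and the abundant genes Anxa2 (0.15 ± 0.14) and Ezr (0.12 ± 0.22 SE) did not.

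**Figure D4:**
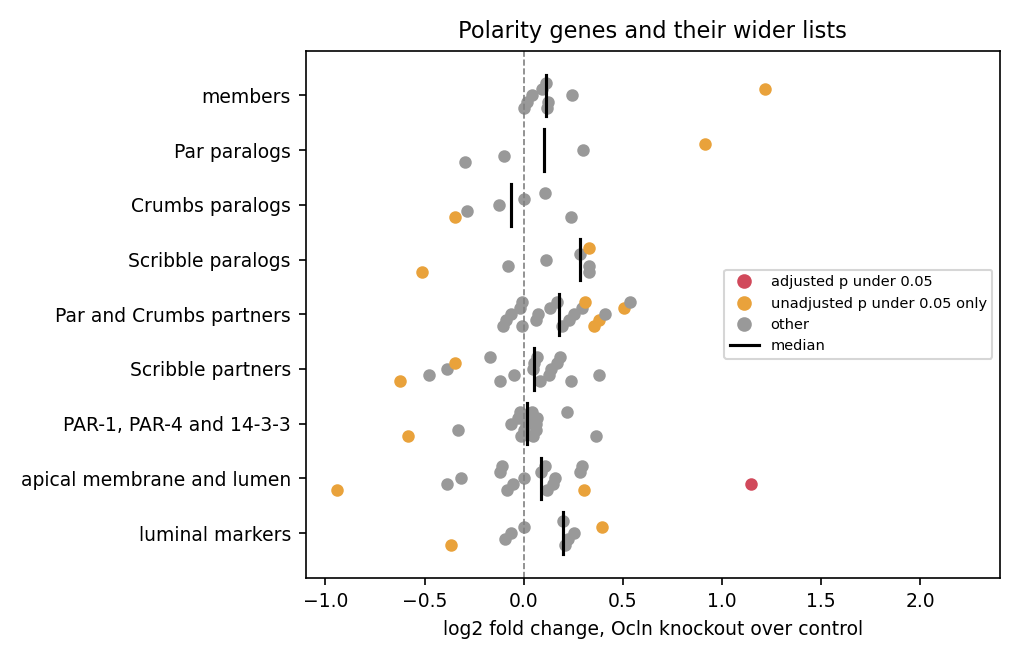
Log2 fold change (x axis, Ocln knockout over control) of every listed gene of the polarity lists and of the luminal markers (y axis), with points shifted vertically only for legibility, red for an adjusted p under 0.05, orange for an unadjusted p under 0.05 only, and black bars for the median of each list. Muc1 (1.15) is the 1 red point, Pard6b (1.22) the rightmost orange point, and the medians lie between -0.06 and 0.28.

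The members are long genes, which bears on their sign. Their longest transcripts ran from 1206 bases for Crb3 to 7340 for Patj with a median of 5470, and 8 of 9 were longer than the median of 3010 over the 16237 listed genes with a length. After the fold changes were set against genes of like transcript length, 7 members were positive and 2, Pals1 (-0.029) and Patj (-0.038), negative. Pard6b stayed at 1.22 and Dlg1 was at 0.18 on that scale.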

How the data were processed

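RNA-seq of 6 libraries, 3 control and 3 Ocln knockout, was used as the authors' deposited table of 1 comparison. The submitters' processing notes name DESeq2, with no version, and the build mm10 (GRCm38); no source used here gives the aligner, counter, strand setting, annotation or model. The authors' columns are, per the file headers, the signal in normalized counts averaged over libraries (the mean level); the log2 fold change and its SE; the Wald statistic, a score; the p-value and adjusted p-value; and a call of another kind (Up, Down or Stable). The score equalled fold change over SE to within 2.6e-07, which shows that fold changes were deposited unshrunken, and the adjusted p-values are a Benjamini-Hochberg adjustment over all 16701 genes (largest difference 0.51 percent). The rule behind every call of the authors was recovered with 0 exceptions as a log2 fold change beyond 1.01 in size together with a p under 0.05 before adjustment.

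No new test per gene was made. Group levels were computed from mean level and fold change, assuming equal groups. CVs between libraries were computed from the SE as a negative binomial fit with 3 libraries a group, equal depth and no shrinkage would give it. Intervals are 1.96 SE. The smallest rise that would pass used the largest called p, 0.000541. Lengths and positions are from GENCODE M21, matched by symbol or RefSeq synonym for 16237 genes. Python 3.11.15, pandas 2.3.3 and scipy 1.17.1 were used, and the adjustment and length steps were tested on simulated data.

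The members and lists were chosen with earlier results of these data known, and the repressor list after the values were seen. Named genes are the members, their paralogs, and in each wider list those past an adjusted p of 0.05, up to 4 at an unadjusted p under 0.05 and the 2 of highest level; marker lists are given as sums and called genes, and Cdc42, F11r, Mark2, Stk11, Gpsm2 and the neighbours of Pard6b were added for their role or position. Krt17, Lyz2, Ptprc and the list genes named for their CV were added for their values. Planned count models and the search for genes of like pattern need values per library and were not run.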

Additional observations from a re-analysis of the deposited data

How the results depend on the processing

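No member passed at an adjusted p under 0.01, with genes of a mean level of at least 50, with scores scaled down for their inflation (factor 1.18 on the squared score), or with the transcript length trend removed in 20 bins. The count of called members was 1, Pard6b, at an unadjusted p under 0.05 and 1 by the authors' own call. The median log2 fold change of the members was 0.11. It moved to -0.083 when centred on the luminal markers, a shift of 0.20 for every gene, was 0.065 with the length trend removed, and stayed between 0.10 and 0.11 without any 1 member. The lowest adjusted p of a member under any of these settings was 0.330. Signs changed only under the 2 settings that can lower a positive fold change, the luminal centring (7 members) and the length correction (2 members). The 7 changes follow from subtracting 0.20 from smaller values, and the length correction raised rather than lowered Crb3. Centred on luminal markers, Pard3 was at -0.083, Prkci at -0.076, Crb3 at -0.19, Pals1 at -0.18, Patj at -0.15, Llgl2 at -0.11 and Scrib at -0.081, as that construction subtracts 0.20. With the length trend removed, Pals1 was at -0.029 and Patj at -0.038. No paired analysis was possible because the table holds no values per library, and for the same reason no library could be left out and no other tool or normalization run. Precision is limited by the SE: rises under 1.41-fold could not have passed for any member.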
